A study of Mus musculus with 5 samples.

Results

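The genes described here are 10 feedback inhibitors of mitogen-activated protein kinase (MAPK) signalling, *Dusp1*, *Dusp4*, *Dusp5*, *Dusp6*, *Dusp7*, *Spry1*, *Spry2*, *Spry4*, *Spred1* and *Spred2*, out of 22380 protein-coding genes of the mouse annotation. They were followed through 2 lists of genomic regions bound by the transcription factors SOX11 and SOX4, obtained by chromatin immunoprecipitation and sequencing (ChIP-seq). A peak was counted for a gene when its centre lay in the gene or within 10 kb of it, or when the nearest transcription start of any protein-coding gene was one of that gene's. By this rule 46 of 21270 SOX11 peaks and 5 of 2669 SOX4 peaks belonged to the 10 genes.

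ChIP was carried out on primary keratinocytes, the main cells of the epidermis, from newborn mice whose background the sample labels give as mixed 129SvEx:C57BL/6; per the methods of the study, the *Krt14-Cre* mice crossed in were FVB/N. All cells carried the genotype *Krt14-Cre;Sox11fl/fl;Sox4fl/fl*, in which Cre from the promoter of the basal keratinocyte keratin *Krt14* deletes both *Sox11* and *Sox4* (double conditional knockout, dcKO). The dcKO cells were transduced with a lentivirus carrying doxycycline-inducible *Sox11* or *Sox4* fused to the FLAG epitope, and the tagged protein was precipitated with a mouse anti-FLAG antibody after doxycycline treatment. There were 2 SOX11-FLAG libraries, 2 SOX4-FLAG libraries and 1 control library that is named Input in its title and IgG in its antibody field. The factors were therefore read as introduced, tagged proteins, not as the cells' own. The authors combined the 2 replicates of each factor into 1 list, and no list of the control was used here. Only peak positions are listed, without heights, scores or read counts. The depth of the libraries and the variation between the replicates therefore could not be read from the lists. The lists hold no marker genes against which the labelled cell type could be checked.

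MAPK cascades carry signals from growth factor receptors through RAS and RAF to ERK, and in the epidermis they take part in the proliferation and migration of keratinocytes. Many genes induced by ERK encode proteins that shut the same cascade off. Dual-specificity phosphatases (DUSPs) remove the activating phosphates from MAP kinases: DUSP1, DUSP4 and DUSP5 are inducible enzymes of the nucleus, while DUSP6 and DUSP7 are ERK phosphatases of the cytoplasm. Sprouty proteins (SPRY1, SPRY2, SPRY4) inhibit signalling between receptor tyrosine kinases and RAF, and the SPRED proteins bring the RAS-inactivating protein neurofibromin to the membrane. SOX11 and SOX4 belong to the SOXC group, whose high mobility group domain binds short sequences around CTTTGT or CATTGT, here called the SOX core.

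Both factors had peaks at *Dusp4* and *Dusp7* alone among the 10 genes. All 5 SOX4 peaks of the set lay there, 3 at *Dusp4* and 2 at *Dusp7*, and each overlapped a SOX11 peak. Such overlap was usual, since 2522 of all 2669 SOX4 peaks (94.5%) overlapped a SOX11 peak. The sequences below are the SOX cores of these 5 shared regions with their flanks, because they are the only places at the feedback genes where both tagged factors were listed. They are read from the mm9 reference genome 5′ to 3′ on the strand that carries the core, which is in capitals. The cells were of mixed strain, so their own sequence may differ from the reference.
*Dusp4*, 216 kb upstream, chr8:35654621-35654650, minus strand: tcagtttgccCTTTGTcctagccctcggag
*Dusp4*, 206 kb upstream, chr8:35664189-35664218, plus strand: ataaccagtgCTTTGTtcccctgtgaatgc
*Dusp4*, promoter, chr8:35870196-35870225, plus strand: ttactcctctCTTTGTgacgtcgagtcccc
*Dusp7*, 2.83 kb from the nearest start, chr9:106279776-106279805, plus strand: gagactgcccCTTTGTtcccctcagtgccc
*Dusp7*, 17.8 kb from the nearest start, chr9:106294766-106294795, minus strand: acacaaaaggCTTTGTacagagcctgaaca

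All 5 shared regions held the form CTTTGT and none held CATTGT. Over all SOX11 peaks, CTTTGT was found in 46.4% and CATTGT in 19.6%, and among the 2522 of them shared with SOX4, in 73.5% and 22.2%. The core printed lay within 34 bp of the SOX11 peak centre in all 5, at +4 and +34 bp in the distal *Dusp4* regions, -26 bp in the *Dusp4* promoter, and +9 and -14 bp at *Dusp7*, counted along the plus strand. The *Dusp4* region at 206 kb and the *Dusp7* region at 2.83 kb had an identical run of 12 bases that begins with the core, CTTTGTTCCCCT. On either strand that run was found in 21 of all SOX11 peaks (0.0987%), of which 8 were shared with SOX4. It was chosen after the sequences were seen and is given as a description.

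All 10 genes held the nearest start of at least 1 SOX11 peak, against 46.6% of protein-coding genes. The numbers ran from 1 at *Spry4* and *Spred1* to 12 at *Spred2*, with 8 at *Dusp4*, 5 each at *Dusp1*, *Dusp7* and *Spry2*, 4 at *Spry1*, 3 at *Dusp6* and 2 at *Dusp5*. The median of the 10 genes was 4.50 peaks, against 0.00 over all protein-coding genes and 1.00 over the 10423 genes with at least 1. There were 5 genes with 5 or more SOX11 peaks, a number that 3.82% of all protein-coding genes reached. Because a first set of results from these lists was known when the genes were chosen, these counts are descriptions and carry no test.

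**Figure D1:**
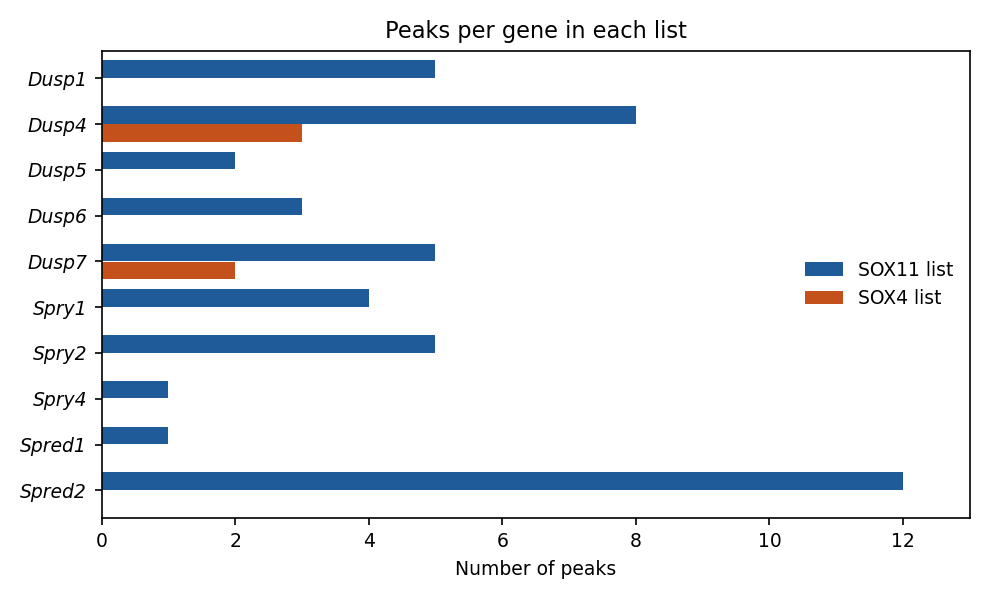
Number of SOX11 peaks (blue) and SOX4 peaks (orange) counted for each of the 10 MAPK feedback genes, with the number of peaks on the horizontal axis. *Spred2* had the most SOX11 peaks, 12, and SOX4 peaks stood at *Dusp4* (3) and *Dusp7* (2).

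For SOX4, 2 of the 10 genes held the nearest start of a peak, against 10.1% of protein-coding genes. Both of them had at least 2 SOX4 peaks, which 1.45% of protein-coding genes did. Within the gene or 10 kb around it, 7 of the 10 genes had a SOX11 peak, against 50.7% of protein-coding genes, and 2 had a SOX4 peak, against 10.2%. By this narrower rule *Dusp5*, *Spry4* and *Spred1* had no SOX11 peak. Of the 46 SOX11 peaks, 14 lay in that window and 32 were counted through the nearest start alone, and no peak was counted through the window alone.

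By the nearest-start rule a gene that stands far from its neighbours has more room to be assigned peaks. The length of chromosome nearest to a gene's starts, its territory, had a median of 107 kb for the 10 genes, against 45.5 kb for all protein-coding genes and 66.9 kb for those with at least 1 SOX11 peak. Pooled over territory, the feedback genes had 2.55 SOX11 peaks per 100 kb, against 0.801 for all protein-coding genes and 1.35 for the genes with at least 1 peak. For SOX4 the same pooled values were 2.77, 1.01 and 1.66 peaks per Mb. The order of the genes changed on this scale: *Dusp1* (7.78 SOX11 peaks per 100 kb in 64.3 kb) and *Dusp7* (6.92 in 72.3 kb) came first, ahead of *Spry1* (4.08), and *Spred2* fell behind them with 2.14 in 562 kb. *Spry4* and *Spred1* were lowest on both scales, with 1.10 and 0.553 peaks per 100 kb. Other genes of the pathway were not pooled over territory, so whether these densities are particular to the feedback genes was not tested.

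**Figure D2:**
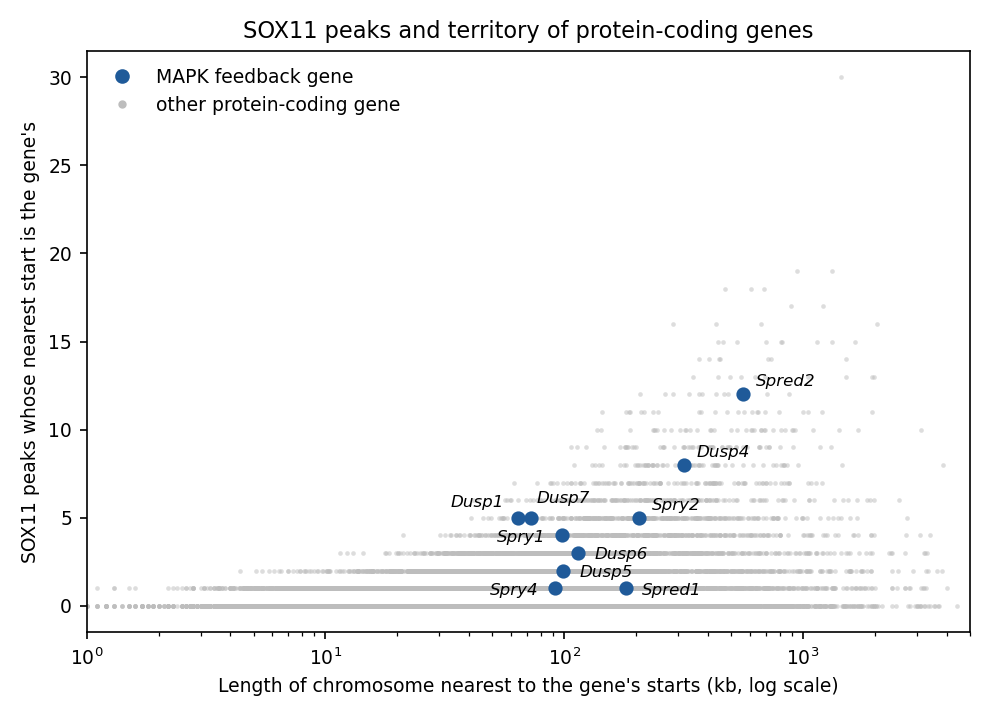
SOX11 peaks whose nearest start is the gene's (vertical axis, number) against the length of chromosome nearest to that gene's starts (horizontal axis, kb, log scale), for the 10 feedback genes (blue, named) and all other protein-coding genes (grey). *Dusp1* and *Dusp7* reached 5 peaks in territories of 64.3 and 72.3 kb, whereas *Spred2* had its 12 peaks in 562 kb.

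Most of the SOX11 peaks of the feedback genes lay between genes, which here means outside promoters and outside the transcribed span of every protein-coding gene. Some were still close to a gene, such as *Spry2* peak 4176 at 0.757 kb and *Dusp7* peak 594 at 1.72 kb from its end. By their centres, 40 of 46 (87.0%, Wilson interval 74.3 to 93.9%) were between genes, against 40.0% of all SOX11 peaks, and 2 (4.35%, 1.20 to 14.5%) were in promoters, reaching 1 kb upstream and 100 bp downstream of starts, against 23.3%. Among the 14 peaks in a gene or within 10 kb of it, the same 2 promoter peaks made up 14.3%. The 23.3% is over all SOX11 peaks, and no share was computed for those in a gene or within 10 kb of one. Introns held 4 (8.70%, against 33.4%), of which 3 were in *Spred2* and 1, counted for *Dusp4*, was in an intron of its neighbour *Tnks*. Apart from *Spred1* (60.9 kb) and *Spred2* (99.7 kb), the feedback genes spanned only 2.93 to 15.0 kb. The shares were not adjusted for gene length. The median distance from peak centre to the nearest start was 35.7 kb, against 11.5 kb over the list. All 10 peaks of the *Spry* genes were between genes. The intervals are 95% intervals for counting error over the peaks of 1 list; peaks of the same gene are not replicates of each other.

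**Figure D3:**
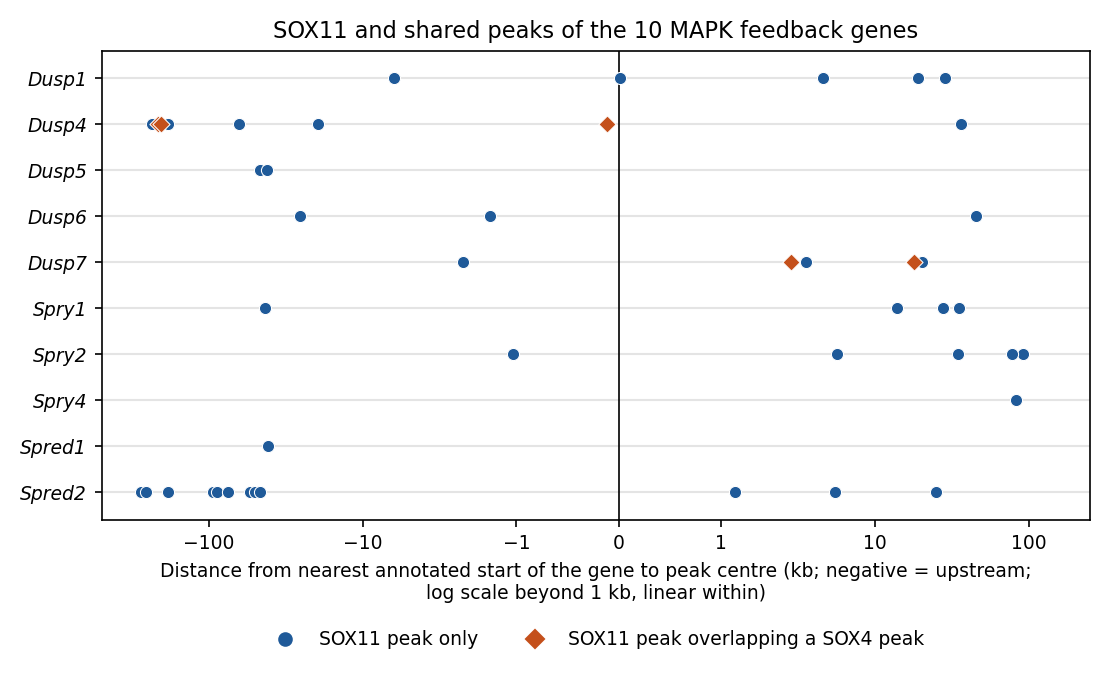
Distance in kb from the nearest annotated start of each feedback gene to the centre of each of its 46 SOX11 peaks (negative is upstream, log scale beyond 1 kb and linear within), with peaks that overlap a SOX4 peak as orange diamonds. The 3 shared peaks of *Dusp4* lay at -216, -206 and -0.117 kb and the 2 of *Dusp7* at 2.83 and 17.8 kb, while 9 of 12 *Spred2* peaks lay upstream.

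*Dusp4* encodes a nuclear phosphatase that inactivates ERK, JNK and p38. It lies on the plus strand of chromosome 8 from 35870351 to 35882948, and 7 of its 8 SOX11 peaks were upstream of its single annotated start. The promoter peak, from 35870105 to 35870362, had its centre 117 bp upstream of the start and stood at position 1689 of the SOX11 list. It overlapped SOX4 peak 1731, from 35870009 to 35870348, with the centres 55 bp apart. This was 1 of only 2 promoter peaks among the 10 genes and the sole one listed for both factors. Its sequence upstream of the annotated transcript, with the SOX core in capitals, was as follows.
*Dusp4* promoter, chr8:35870105-35870350, plus strand: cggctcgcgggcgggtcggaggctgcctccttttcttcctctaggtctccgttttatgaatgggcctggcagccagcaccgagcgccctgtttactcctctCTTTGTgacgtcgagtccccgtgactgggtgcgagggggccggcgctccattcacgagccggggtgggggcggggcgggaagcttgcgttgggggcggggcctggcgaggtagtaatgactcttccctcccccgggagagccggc

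The other shared regions of *Dusp4* were far upstream. SOX11 peak 895, from 35654504 to 35654761, lay 216 kb upstream and overlapped SOX4 peak 1488, from 35654459 to 35654798, with centres 4 bp apart. SOX11 peak 13348, from 35664038 to 35664295, lay 206 kb upstream and overlapped SOX4 peak 2101, from 35664062 to 35664401, with centres 65 bp apart. No protein-coding start was nearer than that of *Dusp4* to either, the next being *Gm4889* at 264 and 273 kb. Both sequences are shown because the first held 2 SOX cores and the second 1, with no AP-1 core in either.
*Dusp4*, 216 kb upstream, chr8:35654504-35654761, plus strand: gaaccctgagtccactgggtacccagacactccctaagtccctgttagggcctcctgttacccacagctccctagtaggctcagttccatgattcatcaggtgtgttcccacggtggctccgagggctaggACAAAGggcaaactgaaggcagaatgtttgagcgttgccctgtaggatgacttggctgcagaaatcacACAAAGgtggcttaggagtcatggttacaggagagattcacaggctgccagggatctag
*Dusp4*, 206 kb upstream, chr8:35664038-35664295, plus strand: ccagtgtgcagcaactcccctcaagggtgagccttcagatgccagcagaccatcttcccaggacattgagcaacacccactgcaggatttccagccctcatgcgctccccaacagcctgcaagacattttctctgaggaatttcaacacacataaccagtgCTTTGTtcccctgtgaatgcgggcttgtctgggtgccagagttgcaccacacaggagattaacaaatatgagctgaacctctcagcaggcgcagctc

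The remaining 5 SOX11 peaks of *Dusp4* lay at -234, -184, -64.0 and -19.6 kb and at +36.3 kb and overlapped no SOX4 peak. They stood at positions 18668, 5270, 11113, 20824 and 19420 of the list. The peak at -64.0 kb held the cyclic AMP response element, TGACGTCA, to which CREB and ATF factors bind, next to a SOX core. Both words are in capitals in this stretch.
*Dusp4*, 64.0 kb upstream, chr8:35806352-35806407, plus strand: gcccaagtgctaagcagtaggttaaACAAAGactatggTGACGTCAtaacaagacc

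*Dusp7* encodes a cytoplasmic ERK phosphatase and lies on the plus strand of chromosome 9 from 106270963 to 106278055. It had 5 SOX11 peaks, 1 at 2.22 kb upstream and 4 beyond the 3′ end of the gene, spread over 28.4 kb. All 5 stood early in the list, at positions 370, 594, 991, 1989 and 2204 of 21270. SOX11 peak 594, from 106279650 to 106279907 and 1.72 kb past the end of the gene, overlapped SOX4 peak 1004, from 106279617 to 106279956, with centres 8 bp apart. SOX11 peak 370, from 106294667 to 106294924 and 16.7 kb past the end, overlapped SOX4 peak 608, from 106294637 to 106294976, with centres 11 bp apart. It was the earliest peak of any feedback gene in both lists.
*Dusp7*, 1.72 kb past the gene, chr9:106279650-106279907, plus strand: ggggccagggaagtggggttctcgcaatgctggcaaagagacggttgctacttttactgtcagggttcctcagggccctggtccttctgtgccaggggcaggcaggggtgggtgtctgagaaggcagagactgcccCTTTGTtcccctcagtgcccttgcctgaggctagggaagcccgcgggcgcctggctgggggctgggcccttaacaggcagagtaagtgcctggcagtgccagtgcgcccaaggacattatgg
*Dusp7*, 16.7 kb past the gene, chr9:106294667-106294924, plus strand: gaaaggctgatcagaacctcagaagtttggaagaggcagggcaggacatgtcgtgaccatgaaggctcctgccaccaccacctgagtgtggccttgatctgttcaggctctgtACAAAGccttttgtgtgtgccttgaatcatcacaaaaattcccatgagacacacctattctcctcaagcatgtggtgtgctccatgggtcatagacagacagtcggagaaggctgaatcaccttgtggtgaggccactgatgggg

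Every one of the 5 *Dusp7* peaks had exactly 1 SOX core and none had an AP-1 core, TGAGTCA or TGACTCA. The shared centres at *Dusp7* were closer than the median of 24.0 bp over all 2522 shared SOX11 peaks, whose quartiles ran from 10.0 to 55.0 bp, as was 1 of the 3 at *Dusp4*. Further along, SOX11 peaks 1049 and 1879, at 36.7 and 37.5 kb past *Dusp7*, had the start of *Rpl29* as the nearest and were not counted. For the 5 peaks that were counted, the start of *Rpl29* was at least 34.6 kb away.

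*Dusp1*, *Dusp5* and *Dusp6* had SOX11 peaks only, where 10.1% of all protein-coding genes were assigned a SOX4 peak. *Dusp1* encodes the founding nuclear MAP kinase phosphatase, a rapidly induced gene, and lies on the minus strand of chromosome 17 from 26642535 to 26645464. Its 5 peaks lay at -6.21, +0.009, +4.62, +19.0 and +28.8 kb from the nearest annotated start. The peak at the start, from 26645326 to 26645583 and position 7548, was the other promoter peak of the set. It held no SOX core and no AP-1 core, but it held TGACGTCA, which 214 of all SOX11 peaks did (1.01%). The part upstream of the transcript is shown on the plus strand with that element in capitals.
*Dusp1* promoter, chr17:26645465-26645583, plus strand: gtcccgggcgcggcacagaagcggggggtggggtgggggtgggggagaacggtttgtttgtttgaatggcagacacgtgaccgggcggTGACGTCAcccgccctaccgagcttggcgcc

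At -6.21 kb, *Dusp1* peak 10017 held 2 AP-1 cores and 1 SOX core 163 bases from the nearer of them. The 2 peaks at +4.62 and +19.0 kb each held 1 SOX core, and the peak at +28.8 kb held neither word. The nearest SOX4 peak was 254 kb from a *Dusp1* start.

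*Dusp5* encodes a nuclear phosphatase specific for ERK and lies on the plus strand of chromosome 19 from 53603599 to 53616921. Its 2 SOX11 peaks lay 46.9 and 42.2 kb upstream, 4.68 kb apart, at positions 6434 and 7879. Each had 1 SOX core, of the form CTTTGT in the first and CATTGT in the second. When starts of genes of all kinds were allowed to compete, both peaks went to *5830416P10Rik*, whose start was nearer, so the link to *Dusp5* rested on counting protein-coding starts alone.
*Dusp5*, 46.9 kb upstream, chr19:53556788-53556843, plus strand: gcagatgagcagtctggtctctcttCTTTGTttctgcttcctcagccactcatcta
*Dusp5*, 42.2 kb upstream, chr19:53561385-53561440, plus strand: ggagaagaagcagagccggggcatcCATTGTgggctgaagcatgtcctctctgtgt

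*Dusp6* encodes an ERK-specific cytoplasmic phosphatase whose transcript is widely used as a readout of ERK activity. It lies on the plus strand of chromosome 10 from 98725865 to 98730122 and had 3 SOX11 peaks, at -25.6, -1.48 and +45.7 kb. The earliest of them in the list, peak 2448 from 98724253 to 98724510, lay 1.48 kb upstream, just outside the 1 kb promoter limit. All 3 held a SOX core, and in the outer 2 an AP-1 core stood 20 and 6 bases from it. The last of these is shown with both words in capitals.
*Dusp6*, 45.7 kb downstream, chr10:98771694-98771726, plus strand: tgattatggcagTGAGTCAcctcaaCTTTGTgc

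The Sprouty genes had 10 SOX11 peaks between them and no SOX4 peak, where 10.1% of all protein-coding genes were assigned a SOX4 peak. *Spry1*, on the plus strand of chromosome 3 from 37538869 to 37543520, had peaks at -43.2, +13.9, +27.8 and +35.1 kb. All 4 stood late in the list, at positions 19383, 16901, 18793 and 20365, after every one of the *Dusp7* and *Spred2* peaks. A SOX core was found in 1 of the 4, peak 16901 from 37552765 to 37553022. Its centre lay 9.37 kb past the end of the gene, the farthest of any peak counted through the 10 kb window, and the nearest counted peak beyond that limit was the shared *Dusp7* peak at 16.7 kb. The nearest SOX4 peak was 75.9 kb from a *Spry1* start and belonged to *Gm5148* by the nearest-start rule.
*Spry1*, 13.9 kb downstream, chr3:37552776-37552831, plus strand: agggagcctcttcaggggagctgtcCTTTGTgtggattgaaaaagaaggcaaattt

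*Spry2*, on the minus strand of chromosome 14 from 106291166 to 106296036, had 5 SOX11 peaks, and each held a SOX core. They lay at -1.05, +5.63, +34.5, +77.7 and +91.3 kb. Peak 4176, from 106290280 to 106290537 and 0.757 kb past the 3′ end, was the earliest *Spry* peak of the list, and the other 4 stood at 11532, 19342, 18091 and 15917. The 3 farthest peaks each held an AP-1 core as well, 73, 19 and 80 bases from the nearest SOX core at +34.5, +77.7 and +91.3 kb. The nearest SOX4 peak was 4091 kb away, farther than for any other of the 10 genes. The stretches around the SOX cores of the 2 gene-proximal peaks are shown.
*Spry2*, 5.63 kb downstream, chr14:106290381-106290436, plus strand: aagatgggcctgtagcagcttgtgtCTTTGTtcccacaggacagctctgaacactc
*Spry2*, 1.05 kb upstream, chr14:106297121-106297176, plus strand: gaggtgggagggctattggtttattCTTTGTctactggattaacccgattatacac

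*Spry4*, on the minus strand of chromosome 18 from 38745922 to 38760922, had a single SOX11 peak, from 38677690 to 38677947, at 83.1 kb downstream of its start and at position 11005. It held neither a SOX nor an AP-1 core, and the start of *Arhgap26* was almost as near, at 83.4 kb. Its nearest SOX11 peak was the most distant among the 10 genes, and no SOX11 peak lay within 50 kb of it.

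The SPRED genes, which encode membrane inhibitors of RAS to RAF signalling, had very different numbers of peaks. *Spred1*, on the plus strand of chromosome 2 from 116947110 to 117008015, had 1 SOX11 peak, from 116905505 to 116905762, 41.5 kb upstream and at position 7201, with no SOX or AP-1 core. *Spred2*, on the plus strand of chromosome 11 from 19824378 to 19924029, had 12, and 0.170% of all protein-coding genes had more. Of these 12, 9 lay 46.8 to 279 kb upstream and 3 lay in introns, at +1.24, +5.47 and +24.9 kb from the nearest of its annotated starts. All 12 stood between positions 1503 and 10621, before the middle of the list. None overlapped a SOX4 peak, while 11.9% of all SOX11 peaks did. The nearest SOX4 peak was 247 kb from a *Spred2* start and was nearest to the start of *Rab1*.

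The earliest *Spred2* peak, number 1503 from 19825553 to 19825810, lay in an intron 1.24 kb from the nearest of the annotated starts. It had a G and C content of 67.4% and 1 SOX core, close to the peak centre, and its sequence is printed because it was the earliest peak in the list among those of the 10 genes that lay inside a gene.
*Spred2*, 1.24 kb downstream, chr11:19825553-19825810, plus strand: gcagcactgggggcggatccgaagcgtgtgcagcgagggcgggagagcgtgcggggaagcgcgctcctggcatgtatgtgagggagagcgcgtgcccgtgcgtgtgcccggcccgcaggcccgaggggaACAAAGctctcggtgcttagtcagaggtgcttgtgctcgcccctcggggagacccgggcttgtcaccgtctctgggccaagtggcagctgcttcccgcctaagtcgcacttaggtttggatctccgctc
The intronic peak at +24.9 kb, number 8589, held an AP-1 core 6 bases from a SOX core of the form CATTGT, read here on the plus strand as its reverse complement.
*Spred2*, 24.9 kb downstream, chr11:19879500-19879555, plus strand: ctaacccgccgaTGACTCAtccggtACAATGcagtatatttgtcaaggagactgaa

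A further 2 SOX11 peaks, numbers 2449 and 2888, lay 13.8 and 19.4 kb past the end of *Spred2* but were nearer to the start of *Actr2*, at 75 and 69.4 kb, than to any start of *Spred2*, and were not counted. With a window of 50 kb these and 5 others would have joined, for 53 SOX11 peaks in all, and no SOX4 peak would have. When starts of genes of every kind competed, 6 of the 12 *Spred2* peaks went to other genes, among them 3 to *Gm12029*. Over the 10 genes, 13 of 46 peaks moved in that way, and *Dusp5*, *Spry4* and *Spred1* lost all of theirs. Every peak of *Dusp1*, *Dusp4*, *Dusp6* and *Dusp7* stayed. By the numbers of SOX11 and SOX4 peaks assigned, 12 and 0, the genes most like *Spred2* were *Sh3bp4*, *Dab2ip* and *Asap1*, the only 3 other protein-coding genes with exactly these counts.

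The order of the lists is not explained in the sources used here, and the meaning of a position was not tested. Over the whole SOX11 list, however, the share of peaks that overlap a SOX4 peak fell from 37.0% in the first 5000 positions to 7.34% in the next 5000, 3.30% in the third 5000 and 2.20% in the rest. The SOX core was found in 80.3%, 56.4%, 47.8% and 51.2% of peaks in the same bins. The feedback genes had 14, 13, 7 and 12 SOX11 peaks in them, of which 4, 0, 1 and 0 were shared with SOX4. The median position of their 46 peaks was 8038, against 10636 for the list. The 13 *Spred* peaks all stood before the middle of the list, as did 15 of 23 *Dusp* peaks but only 1 of 10 *Spry* peaks. The exception among the shared peaks was the *Dusp4* peak at 206 kb, which stood at 13348.

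**Figure D4:**
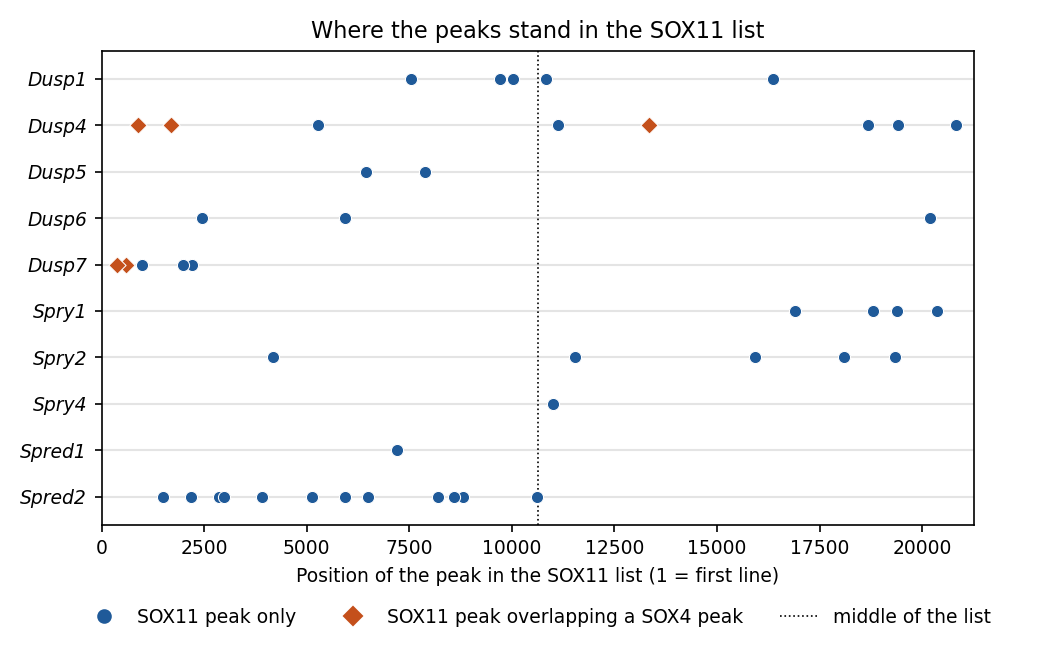
Position of each of the 46 SOX11 peaks of the feedback genes in the deposited SOX11 list (horizontal axis, 1 is the first line), by gene, with peaks that overlap a SOX4 peak as orange diamonds and the middle of the list as a dotted line. The 5 *Dusp7* peaks stood at 370 to 2204 and the 4 *Spry1* peaks at 16901 to 20365.

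The share of the feedback genes' SOX11 peaks that overlapped a SOX4 peak was 10.9% (5 of 46, interval 4.73 to 23.0%), against 11.9% over the whole list. The share was near that of the list, and the shared peaks were gathered at 2 genes. Among the 14 feedback peaks of the first 5000 positions, 4 were shared, all of them at *Dusp4* and *Dusp7*. The other 10 belonged to *Spred2* (5), *Dusp7* (3), *Dusp6* (1) and *Spry2* (1).

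The SOX core was found in 32 of the 46 peaks (69.6%, interval 55.2 to 80.9%), against 58.5% of all SOX11 peaks, a value inside that interval. In sequences of the same width 2 kb downstream it was found in 26.1% and 32.2%. By family it was present in 19 of 23 *Dusp* peaks, 6 of 10 *Spry* peaks and 7 of 13 *Spred* peaks. The core nearest to the peak centre was a median of 25 bp from it, with 16 of 32 within 25 bp, against 18 bp and 59.6% over all SOX11 peaks with a core. The share depended on the word searched. With the longer, 10-letter SOX motif and 1 mismatch allowed, 41.3% of the feedback peaks matched, against 47.3% of the list, so the feedback genes stood above the list for the core and below it for the longer motif.

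The AP-1 core, the site of FOS and JUN proteins that act downstream of MAP kinases, was found in 13 of 46 peaks (28.3%, interval 17.3 to 42.5%), against 28.5% of all SOX11 peaks. In the sequences 2 kb downstream it was found in 0 of 46 (interval up to 7.71%) and in 4.59% of the list. As an exact word it was absent from all 5 peaks shared with SOX4 and from all 5 *Dusp7* peaks, whereas 25.2% of all shared SOX11 peaks had it. The absence depended on the word searched. With the 10-letter AP-1 motif and 1 mismatch allowed, the shared peaks 895 and 1689 of *Dusp4* and 370 of *Dusp7* matched. So did *Dusp7* peak 2204. That motif matched 43.5% of the 46 peaks and 41.1% of the list. Both cores were present in 10 of the 46 peaks (21.7%, against 17.2%), with a median of 22.0 bases between the nearest pair, against 44 over the 3656 SOX11 peaks with both. A gap of exactly 6 bases, as in the *Dusp6* and *Spred2* stretches printed above, occurred in 33 of those 3656 peaks. These were picked out after the gaps were seen.

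**Figure D5:**
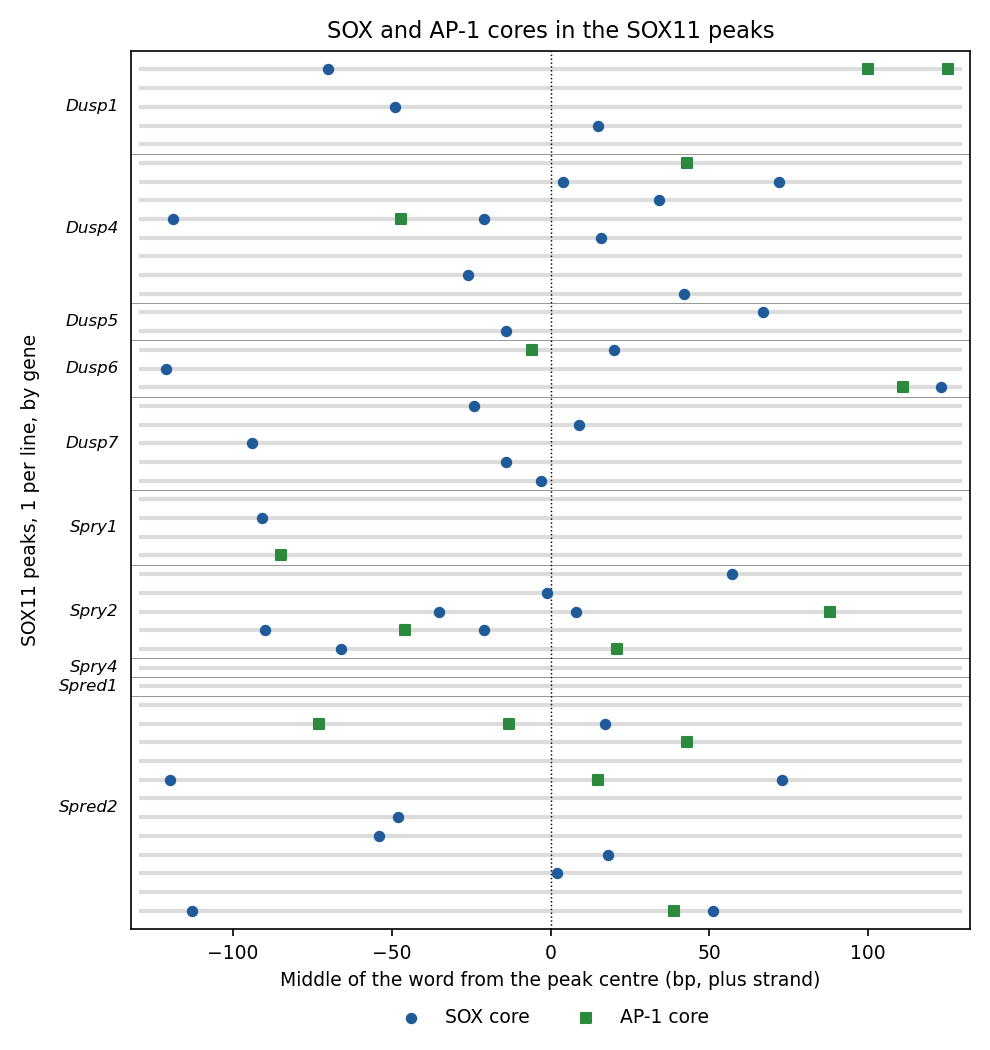
Positions of SOX cores (blue circles) and AP-1 cores (green squares) in bp from the peak centre, along the plus strand, in the 46 SOX11 peaks of the feedback genes, with 1 grey line per peak, grouped by gene and, within a gene, ordered from upstream to downstream. Every *Dusp7* and *Spry2* peak has a SOX core, whereas the single peaks of *Spry4* and *Spred1* have neither word.

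The TEAD and ETS cores were near the level of the list. The TEAD core GGAATG was in 10 of 46 peaks (21.7%, against 22.8%), and the ETS core CCGGAA, bound by factors that ERK phosphorylates, in 5 (10.9%, against 10.7%). None of the 5 SOX11 peaks shared with SOX4 held either, while the wider SOX4 peak 608 at *Dusp7* held 1 TEAD core. TGACGTCA was in 2 of 46 (4.35%, interval 1.20 to 14.5%, against 1.01%), both at nuclear phosphatase genes, *Dusp1* and *Dusp4*. Words were searched as exact letters on both strands, and a match is not a measured site of binding.

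The rest of the pathway was read from a list of 35 genes, of which 34 were in the annotation (*Spry3* was not found, and *Hras* is annotated as *Hras1*). Of the 34, 29 held the nearest start of a SOX11 peak, against 46.6% of all protein-coding genes, and 5 that of a SOX4 peak, against 10.1%. Not adjusted for territory, their median was 1.00 SOX11 peak, and together they were assigned 73 SOX11 peaks and 7 SOX4 peaks. Among those with most SOX11 peaks were *Dusp10*, a phosphatase of JNK and p38, and *Lrig1*, a membrane inhibitor of the epidermal growth factor receptor, with 9 each, then *Ksr1*, a scaffold of RAF, MEK and ERK, with 7, and *Errfi1*, another receptor inhibitor, with 5. All 5 other MAP kinase phosphatases of the list (*Dusp2*, *Dusp8*, *Dusp9*, *Dusp10* and *Dusp16*) were assigned at least 1 SOX11 peak and none a SOX4 peak. In the gene or 10 kb around it, 4 of these 5 had a SOX11 peak. By that narrower rule 29 of the 34 genes had a SOX11 peak and 3 a SOX4 peak, against 50.7% and 10.2% of all protein-coding genes. For the 10 feedback genes the counts were 7 and 2.

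By the same nearest-start rule, all 7 other negative regulators were assigned a SOX11 peak and 3 a SOX4 peak, *Lrig1* with 3 and *Errfi1* and *Il17rd* with 1 each, and the median was 3 SOX11 peaks. *Lrig1* was the only one of the 34 genes assigned 2 or more SOX4 peaks, the number that *Dusp4* and *Dusp7* also reached. In the cascade from adaptors through RAS and RAF to ERK, 12 of 15 genes were assigned a SOX11 peak, and *Nras* and *Araf* were assigned 1 SOX4 peak each. In the gene or 10 kb around it, 13 of the 15 had a SOX11 peak, against 50.7% of all protein-coding genes. Of the JNK and p38 kinases, 4 of 6 were assigned a SOX11 peak, 1 each, and none a SOX4 peak, while 5 of 6 had a SOX11 peak in the gene or 10 kb around it. Of all protein-coding genes, 46.6% were assigned a SOX11 peak and 10.1% a SOX4 peak. In the gene or 10 kb around it, the shares were 50.7% and 10.2%. The counts of the pathway genes carry no test, since their lists were chosen with earlier results known.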

How the data were processed

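The authors mapped single-end reads to mm9 with Bowtie2, removed low-quality reads and duplicates (Picard), called peaks with HOMER in its factor style and subtracted blacklisted regions with bedtools; versions, thresholds and the control used for calling are not given in the sources used here. The deposited files hold only peak coordinates, from both replicates of a factor together. All but a few peaks had 1 width per list, 258 bp for SOX11 and 340 bp for SOX4. Starts were read as 0-based and are printed from 1.

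Peaks were assigned by their centres to GENCODE M1 genes of the same build, using the starts of all transcripts of protein-coding genes. Overlap meant at least 1 bp and was checked against bedtools 2.31.1. Words were searched with pysam 0.24.0 and Python 3.11.15, Wilson intervals came from scipy 1.17.1, and figures from matplotlib 3.10.9. Assignment, promoter rule, overlap and word search were tested on simulated data. The 10 genes, the gene lists, the words and the sequences shown were chosen with earlier results of these data known. The rule named every SOX4 peak, every promoter peak and the earliest peak of each gene; other peaks, and sequences beyond 1 shared region per gene, were picked after their values were seen. No test was made, since each factor has 1 list.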

Additional observations from a re-analysis of the deposited data

How the results depend on the processing

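For 10 results, 31 alternatives were computed, 4 of them chosen after seeing the data, and 26 left the result within 1.5 times its count or within its interval. Without the nearest-start rule the SOX11 peaks of the 10 genes went from 46 to 14 and the SOX4 peaks from 5 to 2, because the alternative counts only peaks in the gene or 10 kb around. Peaks of these genes with the SOX core went from 69.6% to 41.3% with the 10-letter motif and to 43.5% within 50 bp of the peak centre, where all SOX11 peaks had 47.3% and 45.6%. The share with the AP-1 core went from 28.3% to 43.5% with the 10-letter motif, against 41.1% over the list. With starts of genes of all kinds, 33 SOX11 peaks and all 5 SOX4 peaks stayed, and 7 of 10 genes kept a SOX11 peak; with the SOX11 list cut at its middle, 8 did. The promoter share, 4.35%, was 14.3% without the nearest-start rule and 8.70% with promoters from 2 kb upstream. Both counted among the 26 only because the interval of that share was wide, 1.20 to 14.5%. No paired analysis was possible because the replicates of each factor were merged into 1 list, and for the same reason no replicate could be left out. Without heights or read counts, a gene with no SOX4 peak cannot be told apart from one with a signal below the authors' threshold.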
